A study of Mus musculus with 9 samples.

Results

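The 42 genes described here encode the proteins that mark and license DNA replication origins, unwind DNA and copy it at the fork. They were picked by name and function from the 35771 gene rows of the table, by a rule that uses no measured value, although earlier results of these data were known when the list was drawn up. All 42 Ensembl identifiers matched a mouse gene symbol and all 42 passed the filter on low counts. They fall into 9 roles, from the origin recognition complex to the joining of Okazaki fragments.

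RNA was sequenced from 9 libraries of mouse embryonic stem cells (ESCs), 3 libraries in each of 3 groups. All cells were of mixed background and homozygous for iMOS T1-Myc, a construct whose recombination leaves cells with different numbers of extra copies of the transcription factor gene Myc, marked by the yellow fluorescent protein EYFP. All cells also carried RERT, which makes that recombination depend on 4-hydroxytamoxifen. The first group, called uninduced here, came from cultures in which no mosaic was induced. The other groups came from mosaic cultures given 20 µM 4-hydroxytamoxifen for 24 h and sorted by EYFP level 24 h after the drug was removed. One held cells with 2 extra copies of Myc and EYFP, and the other held cells with no extra copy, which had grown in the same kind of mosaic culture. Induced cells with and without extra copies therefore differ in copy number and in the EYFP level by which they were sorted. Either of them against uninduced cells also differs in drug treatment and in growth in a mosaic culture. The sources used here do not name the promoter that drives the extra copies. The design text calls the libraries biological replicas, but no label says whether they are separate cultures, so the p-values measure the spread between these libraries.

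A replication origin is first bound by the origin recognition complex, ORC1 to ORC6. CDC6 and CDT1 then load the ring of MCM2 to MCM7 around DNA, which licenses the origin, and geminin blocks CDT1 so that an origin is not licensed again in the same cycle. The kinase CDC7 with its activator DBF4 lets CDC45 and the GINS complex join the MCM ring, which becomes the active helicase, and polymerases alpha, delta and epsilon copy the strands with the clamp PCNA, its loader RFC and the single-strand binding protein RPA. Mouse ESCs cycle fast with a short G1 phase, and the genes of this machinery are textbook targets of the E2F factors.

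Library totals ran from 4165286 to 8872303 rounded expected counts, and the members were covered by 69 to 4601 counts in a library. Myc and Mycn were read as a check of the labels. The mean level of Myc was 13.3 ± 1.51 CPM (counts scaled to a common library total after TMM) in uninduced libraries, 31.6 ± 0.913 CPM without an extra copy and, with 2 extra copies, 142 ± 4.36 CPM (SD, n = 3), with no overlap between the groups. Myc was thus also called higher without an extra copy than in uninduced cells (log2 change 1.24). The labels do not state this rise, and its cause was not tested. Mycn was called lower with 2 extra copies against none (log2 change -0.27), with 2 extra copies against uninduced cells (-0.57) and without an extra copy against uninduced cells (-0.30). The summed mean of Myc and Mycn was 201, 184 and 268 CPM in the order of groups above. Replicate 1 with 2 extra copies stood apart from the others of its group, with a chi-square per degree of freedom of 2.67 and 3.03 against them, where the other pairs within groups had 1.37 to 1.82. The summed level of 8 ESC markers (Pou5f1 and Nanog among them), all 8 detected, was 3201 to 3260.2 CPM in uninduced libraries, 3179.7 to 3269.6 CPM without an extra copy and 2973 to 3142 CPM with 2 extra copies. Of these 8, 3 were called lower with 2 extra copies against none and 2 against uninduced cells. Without an extra copy against uninduced cells, 2 were called higher and 2 lower. That is 37.5%, 25% and 50%, beside 16.0%, 25.0% and 13.5% of all genes tested. Of 10 fibroblast markers, 7 passed the filter and Lum, Dcn and Postn did not. Over all 10 the sum was 85.1 to 89.7 CPM in uninduced libraries, 199.6 to 225 without an extra copy and 129 to 134 with 2 extra copies. Of 9 extraembryonic endoderm markers, 6 passed and Gata6, Sox17 and Sox7 did not. Over all 9 the sum was 233 to 237, 299.7 to 344 and 202 to 218 CPM in that order of groups. The part of these marker levels in the results on replication genes was not tested. In bulk libraries fewer cells of a type and less RNA per cell cannot be told apart, and CPM is a share of a library, so the amount of RNA per cell was not measured.

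The replication genes were expressed well above the typical gene. Per transcript length, the median level of the 42 genes was 93.4 TPM (counts per transcript length on a common total, mean over the 9 libraries), against 18.3 TPM for all 13424 genes tested, and 41 of the 42 lay above that median. The exception was Gins3, a GINS subunit, at 14.9 ± 1.14 TPM (SD over 9 libraries, as for the next values). Pcna, the sliding clamp, was highest at 483 ± 25.8 TPM, although a pseudogene can share its reads. The 6 MCM genes lay between 153 TPM for Mcm4 and 358 TPM for Mcm7, with a median of 279 TPM. The 6 ORC genes lay lower, between 27.5 TPM for Orc4 and 131 TPM for Orc6, with a median of 72.2 TPM. The ranges of these complexes did not overlap. Within the loading step, Cdc6 was at 40.3 ± 3.38 TPM, while its partner Cdt1 was at 188 ± 7.39 TPM and the inhibitor Gmnn at 149 ± 6.59 TPM. Dbf4, the activator of the firing kinase, was at 199 ± 10.8 TPM and its catalytic partner Cdc7 at 33.8 ± 3.68 TPM. On this scale subunits of one complex thus had transcript levels several-fold apart in these cells. Each level was divided by the length of the longest protein-coding transcript, so ratios between genes depend on that choice. Which transcript forms the cells used was not measured.

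**Figure D1:**
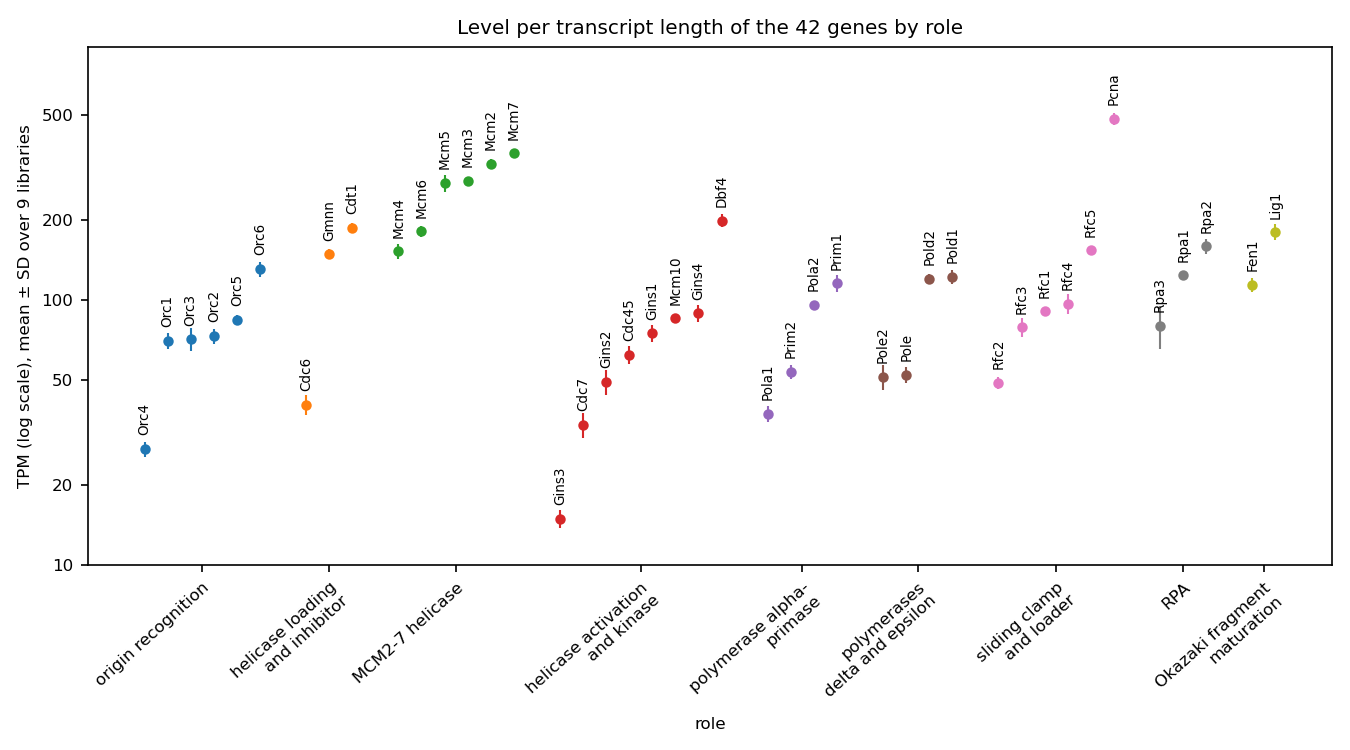
Level per transcript length of the 42 replication genes by role, as TPM on a log axis; points are means and lines SD over 9 libraries. Pcna is highest at 483 TPM and Gins3 lowest at 14.9 TPM, and the 6 MCM genes all lie above the 6 ORC genes.

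Changes of the replication genes between groups were small in size. The summed level of the 42 genes was 6536, 6600.3 and 6640.3 CPM in the uninduced libraries, 6627, 6582 and 6706 CPM in those without an extra copy and 6378, 6591 and 6667 CPM in those with 2 extra copies, so the groups overlapped in CPM. Per transcript length the sum was 5381, 5335 and 5309 TPM in the uninduced libraries and 5370.3, 5311 and 5459 TPM without an extra copy. With 2 extra copies it was 5069.7, 5139 and 5141 TPM, below the other 6 libraries. Each gene had the same length in all libraries, so TPM differed from CPM between libraries only by a factor common to all genes. TPM thus moved for genes at large as well. Cells with 2 extra copies had a median log2 TPM change of -0.0633 over all genes and -0.0682 over the members relative to cells without an extra copy, and of -0.0670 and -0.0731 relative to uninduced cells. On the CPM scale of the test, the median log2 change of the members was -0.00304 with 2 extra copies against none, -0.0195 with 2 extra copies against uninduced and 0.0298 without an extra copy against uninduced, beside -0.0119, -0.0143 and 0.00221 over all genes tested. In each comparison, 41 or 42 of the 42 genes changed by no more than 1.25-fold, and Rpa3, a subunit of RPA, was the one exception in both comparisons of cells with 2 extra copies. Larger changes were uncommon among all genes of a like level: of the 7798 tested genes in the members' range of mean CPM (17.2 to 503), 507, 890 and 456 passed 1.25-fold in the 3 comparisons. The median absolute log2 change of the members was 0.0985, 0.0935 and 0.0684, beside 0.101, 0.123 and 0.0942 in that range. The 95% interval of the change lay wholly within 1.25-fold for 36, 39 and 38 of the 42 genes in the same order of comparisons. That is 85.7%, 92.9% and 90.5% of the members, against 69.8%, 63.1% and 72.1% of the genes in the range, whose median SE was also larger (0.0724, 0.0707 and 0.0704 against 0.0527, 0.0518 and 0.0524).

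Small shifts of single genes still passed the test, since replicates lay close together: the median coefficient of variation of a member within a group was 2.79% in uninduced libraries, 3.26% without an extra copy and 4.76% with 2 extra copies. With 2 extra copies against none, edgeR called 5 members higher and 8 lower at an adjusted p below 0.05, which is 31.0% of them, beside 16.0% of all genes tested and 20.2% of those in the same CPM range. With 2 extra copies against uninduced cells, 7 were higher and 6 lower, 31.0% of the members against 25.0% of all genes and 31.6% of those in that range. Without an extra copy against uninduced cells, 3 were higher and 5 lower, 19.0% against 13.5% and 17.6%. In both comparisons with uninduced cells the share of members called was close to that of genes with a like level. By direction, the share of all genes called was 8.30% higher and 7.70% lower with 2 extra copies against none, 12.8% and 12.1% with 2 extra copies against uninduced, and 7.10% and 6.39% without an extra copy against uninduced. In all, 21 of the 42 were called in at least 1 comparison (50%), beside 34.3% of all genes and 42.8% of those in the range. Groups did not overlap for 18, 17 and 20 members in the 3 comparisons, 42.9%, 40.5% and 47.6%, beside 30.6%, 38.5% and 31.5% of all genes. Among genes in the same CPM range the shares were 34.9%, 44.2% and 36.7%, so in the second comparison the members lay below them.

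These counts depended on the libraries and the tool. Without replicate 1 with 2 extra copies, the first comparison had 6 members higher and 1 lower, the second 7 and 2, and the third 4 and 5. Those are 16.7%, 21.4% and 21.4% of the members, beside 18.8%, 27.2% and 16.1% of all genes, so in the first comparison the share of members called was no longer above that of all genes. DESeq2 called 2 higher and 2 lower, 4 and 1, and 0 and 1, which is 9.52% and 11.9% of the members in the first and second comparison, beside 8.01% and 14.1% of all genes, and 1 member in the third, where 399 of all genes were called higher and 407 lower. With no TMM scaling (library size alone), the split was 2 higher and 12 lower, 6 and 10, and 4 and 3; over all genes it was 774 higher and 1360 lower, 1494 and 1848, and 1105 and 742. With upper-quartile factors the third comparison had 1 higher and 5 lower. Trends over genes also moved with the groups. The slope of a library's log2 level, relative to the mean of all libraries, was -0.0639 to -0.0246 per 10 percentage points of GC content in uninduced libraries, 0.0212 to 0.0679 without an extra copy and -0.0424, 0.0430 and 0.0206 in replicates 1, 2 and 3 with 2 extra copies. Per doubling of transcript length it was 0.0161 to 0.0451, -0.00265 to 0.0164 and 0.00559, -0.0465 and -0.0564 in the same order. With offsets for the GC trend, 6 members were called higher and 8 lower, 8 and 4, and 4 and 1. With offsets for the length trend, 5 members were called higher and 10 lower, 6 and 8, and 3 and 4. The comparisons share libraries pairwise, so their calls are not independent of each other.

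**Figure D2:**
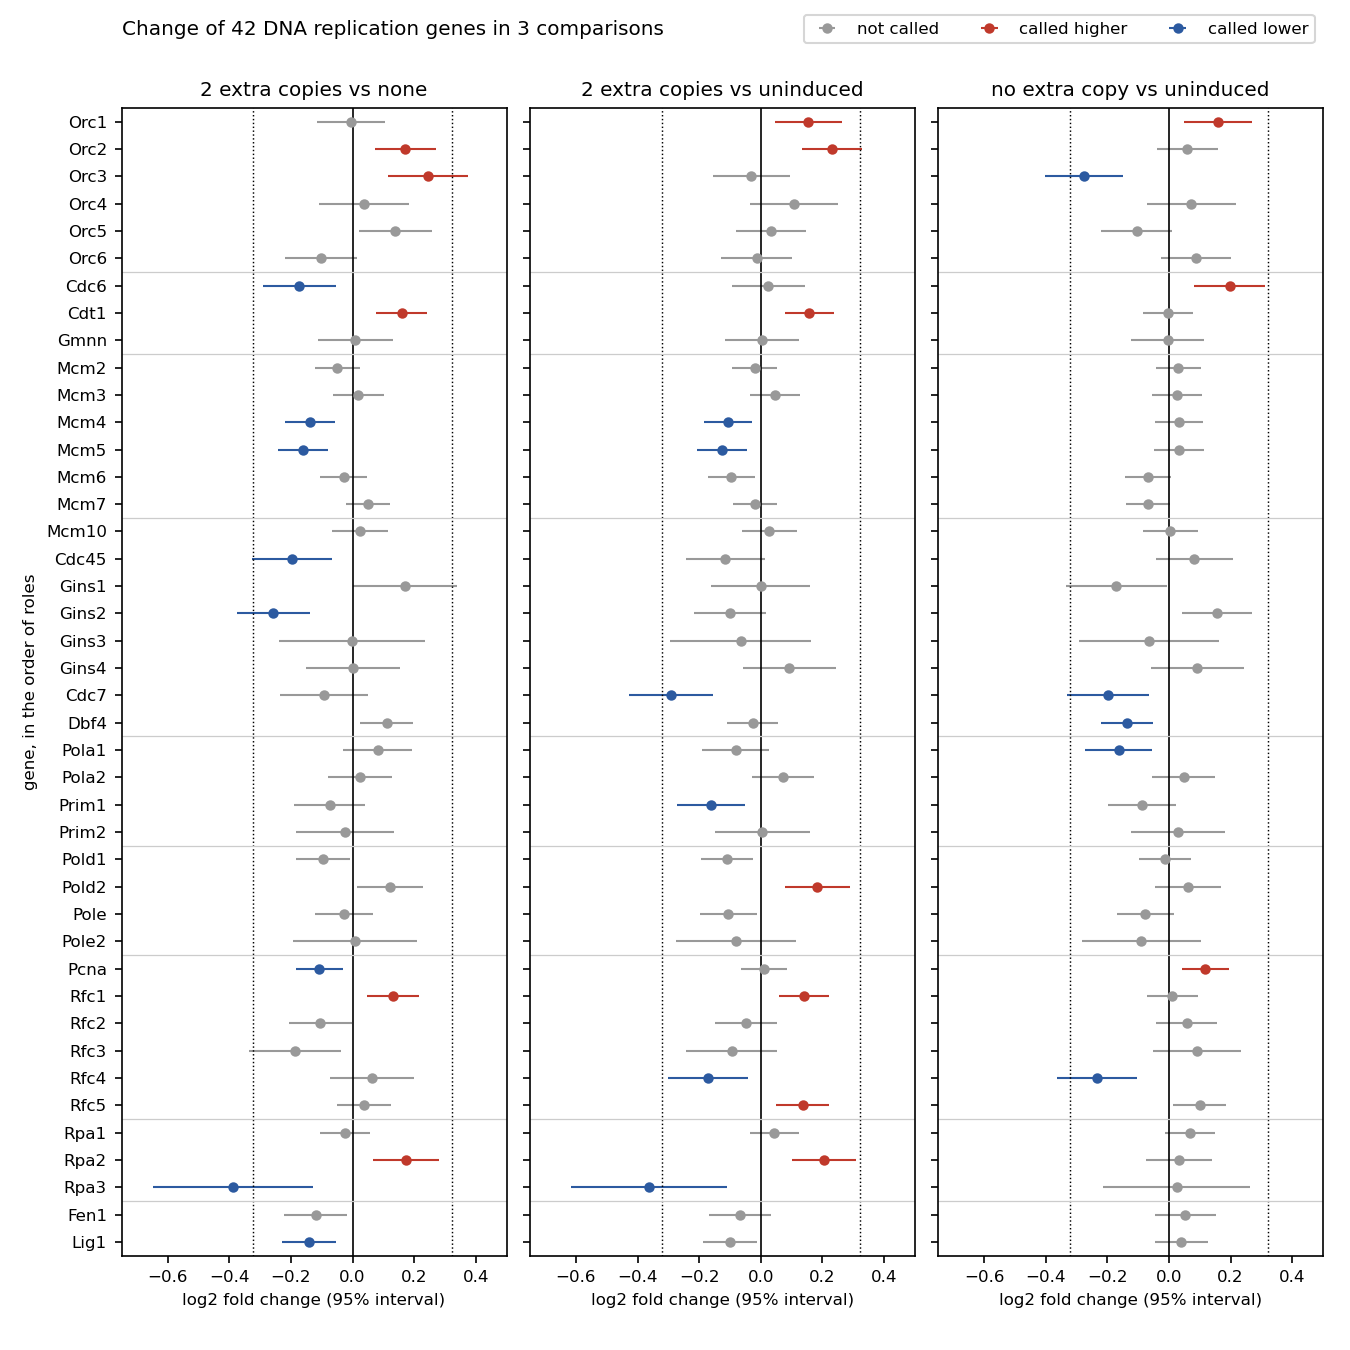
Log2 change of each of the 42 genes with its 95% interval in 3 comparisons (panels), in the order of roles; red and blue mark genes called higher or lower by edgeR, and dotted lines mark a change of 1.25-fold. Rpa3 is the one gene whose point lies beyond a dotted line.

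**Figure D3:**
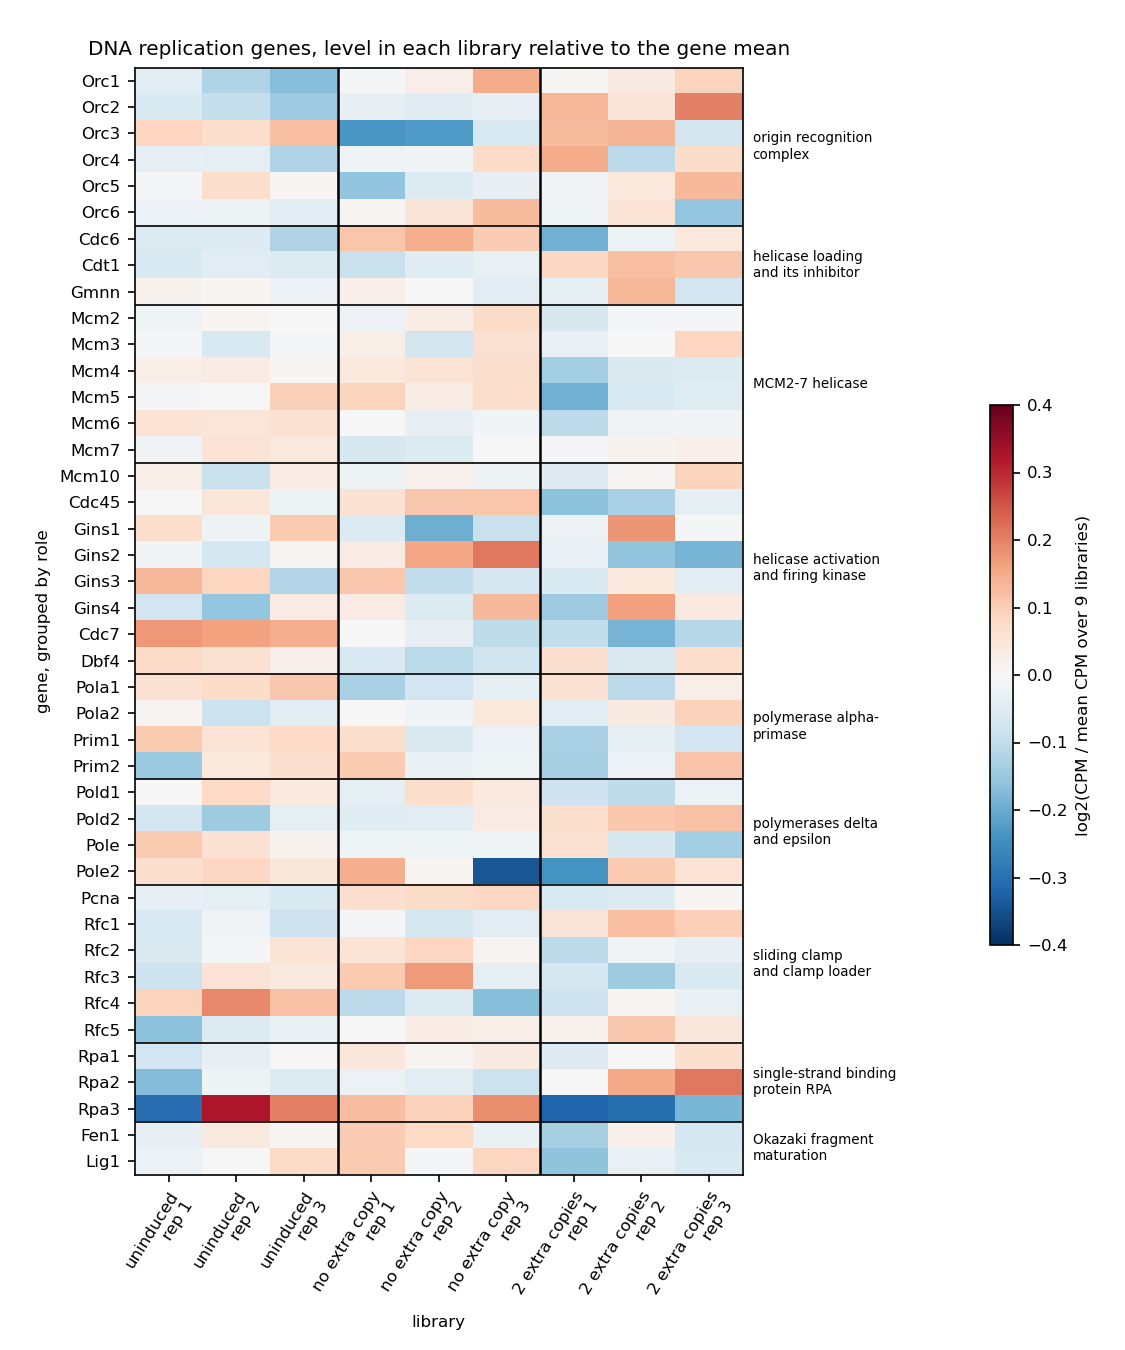
Level of each gene in each of the 9 libraries as log2 of its CPM over its mean CPM; rows are genes grouped by role and columns are libraries. Most cells lie within 0.2 of the gene mean, and Rpa3 shows the widest spread, from 19.6 to 30.6 CPM.

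Promoters are shown for 6 members: the 4 that rose with 2 extra copies against both other groups (Orc2, Cdt1, Rfc1 and Rpa2), Mcm5 as one that fell against both, and Mcm3 as an MCM gene with no call. Each is the sense strand of the gene from RefSeq on GRCm38.p6, 5′ to 3′, from 250 bases before to 50 bases after the annotated start. Capitals mark matches on either strand to the E-box CACGTG, the textbook site of MYC with MAX, or to an E2F-type site (TTTCCCGC, TTTGGCGC, TTTCGCGC or TTTGCCGC).
Orc2, chr1:58505060-58505359, minus strand: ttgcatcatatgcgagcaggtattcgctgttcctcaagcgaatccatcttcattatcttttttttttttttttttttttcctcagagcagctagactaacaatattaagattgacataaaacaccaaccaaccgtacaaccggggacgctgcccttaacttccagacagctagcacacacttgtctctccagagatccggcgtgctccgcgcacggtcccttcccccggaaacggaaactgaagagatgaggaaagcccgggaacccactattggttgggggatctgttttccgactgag
Cdt1, chr8:122567765-122568064, plus strand: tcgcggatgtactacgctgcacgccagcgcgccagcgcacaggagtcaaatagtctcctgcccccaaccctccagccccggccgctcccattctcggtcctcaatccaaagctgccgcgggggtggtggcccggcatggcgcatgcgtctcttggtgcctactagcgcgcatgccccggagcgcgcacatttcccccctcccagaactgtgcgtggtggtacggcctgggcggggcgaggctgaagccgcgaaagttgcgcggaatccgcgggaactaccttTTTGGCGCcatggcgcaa
Rfc1, chr5:65335590-65335889, minus strand: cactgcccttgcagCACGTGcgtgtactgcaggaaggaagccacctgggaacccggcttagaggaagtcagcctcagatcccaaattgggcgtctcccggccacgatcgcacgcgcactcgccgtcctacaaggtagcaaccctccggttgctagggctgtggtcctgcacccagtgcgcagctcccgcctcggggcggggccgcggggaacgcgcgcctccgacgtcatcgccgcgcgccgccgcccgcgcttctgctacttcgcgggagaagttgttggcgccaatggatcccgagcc
Rpa2, chr4:132768110-132768409, plus strand: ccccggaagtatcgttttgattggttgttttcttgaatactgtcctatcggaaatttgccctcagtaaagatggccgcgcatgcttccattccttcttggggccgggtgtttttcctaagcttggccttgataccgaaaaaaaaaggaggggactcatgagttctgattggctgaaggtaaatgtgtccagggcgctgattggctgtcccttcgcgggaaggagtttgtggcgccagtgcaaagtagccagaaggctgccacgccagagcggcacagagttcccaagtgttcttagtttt
Mcm5, chr8:75109259-75109558, plus strand: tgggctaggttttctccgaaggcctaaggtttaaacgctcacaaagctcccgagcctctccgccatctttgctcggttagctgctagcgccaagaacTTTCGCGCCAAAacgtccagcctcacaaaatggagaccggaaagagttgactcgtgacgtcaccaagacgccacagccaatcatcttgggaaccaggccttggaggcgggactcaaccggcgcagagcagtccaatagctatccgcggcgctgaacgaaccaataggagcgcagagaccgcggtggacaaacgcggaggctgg
Mcm3, chr1:20820263-20820562, minus strand: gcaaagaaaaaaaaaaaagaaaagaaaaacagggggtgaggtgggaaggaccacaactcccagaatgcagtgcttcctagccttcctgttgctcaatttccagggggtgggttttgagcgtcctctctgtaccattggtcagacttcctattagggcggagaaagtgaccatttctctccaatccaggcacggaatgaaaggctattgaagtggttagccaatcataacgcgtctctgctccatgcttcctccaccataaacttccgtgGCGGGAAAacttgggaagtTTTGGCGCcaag
Counted from the start base as 0, Cdt1 held TTTGGCGC at position 32, and Rfc1 held the E-box at position -236. Mcm5 held TTTCGCGC at position -153, overlapped by TTTGGCGC of the other strand at position -149. Mcm3 held TTTCCCGC of the other strand at position 19 and TTTGGCGC at position 38. None of these letter strings was in the windows of Orc2 and Rpa2.

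Over the 34 members with a promoter in the RefSeq table, an E2F-type string was found in 14 (41.2%): Orc1, Orc3, Cdc6, Cdt1, Mcm3, Mcm5, Mcm6, Mcm7, Gins3, Pola1, Pold1, Pole2, Rfc3 and Lig1. The share was 2.60% of 27025 genes with a promoter, 4.89% of the 10212 tested ones and 5.61% of the 6222 in the same CPM range. It stood at 41.2% of members and 4.07% of genes in the range when only the last 200 bases were read. Of the 14 members with the string, 7 were called in at least 1 comparison, and of the 20 without it, 12 were. The E-box was found in 6 members (17.6%: Orc4, Pola2, Rfc1, Rpa1, Fen1 and Lig1), beside 8.09% of all genes with a promoter and 13.1% of those in the range. Of these 6, 2 were called in at least 1 comparison, Rfc1 and Lig1. A match describes letters and is not a measured binding site.

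Among the origin recognition genes, 2 of 6 (33.3%) rose with 2 extra copies against none and none of the 6 fell, beside 20.2% of genes in the same CPM range called in either direction. Orc2 encodes a core ORC subunit (ENSMUSG00000026037, chr1:58462771-58505109, minus strand, GRCm38, as for all positions below). Its level was 114, 112 and 108 CPM in the uninduced libraries, 117, 115 and 117 CPM in the libraries without an extra copy, and 131, 124 and 137 CPM in the libraries with 2 extra copies. All 3 libraries with 2 extra copies lay above the other 6, and Orc2 was the one member whose 3 groups stood in the order uninduced, no extra copy, 2 extra copies without overlap (2.38% of members, against 3.56% of all genes ordered in either direction). The rise was 1.13-fold against no extra copy (log2 change 0.17, SE 0.0490, adjusted p = 0.0138) and a rise was also called against uninduced cells (log2 change 0.23, SE 0.0482, adjusted p = 0.000486). The first call was lost with DESeq2 (adjusted p = 0.0849) and with library size alone (adjusted p = 0.0545), and without 2-extra-copy replicate 3 or no-extra-copy replicate 2 (adjusted p between 0.0666 and 0.0924); the second was kept in all 21 alternatives. Exons of Nif3l1 on the other strand cover 29.8% of the exonic bases of Orc2, and the strand used in counting is not stated.

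Orc3, the subunit that pairs with ORC2 (ENSMUSG00000040044, chr4:34570796-34614944, minus strand), moved in cells without an extra copy. Its level was 79.4, 78.5 and 81.3 CPM in the uninduced libraries, 63.7, 64.0 and 71.7 CPM in the libraries without an extra copy, and 81.7, 82.2 and 71.1 CPM in the libraries with 2 extra copies. The libraries without an extra copy were the 3 lowest but for replicate 3 with 2 extra copies, which lay just under their highest. Orc3 fell 1.21-fold without an extra copy against uninduced cells (log2 change -0.27, SE 0.0626, adjusted p = 0.00223), and this call was kept in all 21 alternatives. It was 1.18-fold higher with 2 extra copies than with none (log2 change 0.24, SE 0.0644, adjusted p = 0.00745), a call that was lost without 2-extra-copy replicate 2 or no-extra-copy replicate 2 (adjusted p between 0.0544 and 0.0665). Between 2 extra copies and uninduced cells, its log2 change was -0.03 (95% interval -0.15 to 0.09).

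Orc1, the subunit with the best known cell-cycle control in ORC (ENSMUSG00000028587, chr4:108579423-108614833, plus strand), was lowest in uninduced cells. Its level was 93.9, 88.9 and 85.9 CPM in the uninduced libraries, 96.4, 98.4 and 107 CPM in the libraries without an extra copy, and 96.9, 99.0 and 103 CPM in the libraries with 2 extra copies. Both induced groups lay above the uninduced one without overlap. The rise was 1.11-fold with 2 extra copies (log2 change 0.15, SE 0.0537, adjusted p = 0.0323) and 1.12-fold with none (log2 change 0.16, SE 0.0536, adjusted p = 0.0436), and the induced groups overlapped (95% interval of their log2 difference -0.11 to 0.11). The call with 2 extra copies was lost with DESeq2 (adjusted p = 0.136) and with library size alone (adjusted p = 0.0665), and without uninduced replicate 2 or 3 or 2-extra-copy replicate 2 or 3 (adjusted p between 0.0635 and 0.135). The call without an extra copy was lost with DESeq2, with limma-voom, with upper-quartile factors and with no low-count filter (adjusted p between 0.0624 and 0.214), and without uninduced replicate 2 or 3, 2-extra-copy replicate 2 or 3 or no-extra-copy replicate 2 or 3 (adjusted p between 0.0528 and 0.198). Orc4, Orc5 and Orc6 were not called in any comparison, with log2 changes between -0.10 and 0.14.

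The loading factors Cdc6 and Cdt1, which act together, were called in opposite directions with 2 extra copies against none. Whether their changes differ was not tested. The inhibitor of CDT1 was not called. Cdt1 (ENSMUSG00000006585, chr8:122568015-122573554, plus strand) was at 180.0, 182 and 181 CPM in the uninduced libraries, 177, 182 and 184 CPM in the libraries without an extra copy, and 199, 204 and 203 CPM in the libraries with 2 extra copies. Its libraries with 2 extra copies were the 3 highest, and the other groups overlapped. Cdt1 rose 1.12-fold against no extra copy (log2 change 0.16, SE 0.0402, adjusted p = 0.00523) and 1.12-fold against uninduced cells (log2 change 0.16, SE 0.0394, adjusted p = 0.00301), and both calls were kept in all 21 alternatives. Gmnn, which encodes geminin, was at 77.5, 77.1 and 75.6 CPM in the uninduced libraries, 77.9, 76.8 and 74.3 CPM in the libraries without an extra copy, and 74.7, 84.2 and 72.7 CPM in the libraries with 2 extra copies. Its groups overlapped, and the 95% interval of its log2 change with 2 extra copies was -0.11 to 0.13 against no extra copy and -0.12 to 0.12 against uninduced cells.

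Cdc6 (ENSMUSG00000017499, chr11:98907801-98923940, plus strand) was highest without an extra copy, at 81.8, 81.9 and 78.2 CPM in the uninduced libraries, 91.8, 94.0 and 91.2 CPM in the libraries without an extra copy, and 74.3, 83.8 and 87.5 CPM in the libraries with 2 extra copies. The libraries without an extra copy lay above all 6 others, and those with 2 extra copies spread widely, with replicate 1 lowest. Cdc6 rose 1.15-fold without an extra copy against uninduced cells (log2 change 0.20, SE 0.0568, adjusted p = 0.0163) and was 1.13-fold lower with 2 extra copies than with none (log2 change -0.17, SE 0.0581, adjusted p = 0.0377). The rise was lost with DESeq2 (adjusted p = 0.128), and without uninduced replicate 3 or no-extra-copy replicate 2 (adjusted p between 0.0739 and 0.0950). The second call was lost with DESeq2, with limma-voom, with DESeq2 size factors in edgeR and with no low-count filter (adjusted p between 0.0514 and 0.231), and without uninduced replicate 2, 2-extra-copy replicate 1 or 2, no-extra-copy replicate 1, 2 or 3 (adjusted p between 0.0513 and 0.302).

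Of the 6 MCM genes, the ring of the replicative helicase, 2 fell with 2 extra copies against each of the other groups and none rose. That is 33.3% against none and 33.3% against uninduced cells. Of genes in the same CPM range, 20.2% and 31.6% were called in either direction. Mcm5 (ENSMUSG00000005410, chr8:75109569-75128439, plus strand) was at 424, 426 and 456 CPM in the uninduced libraries, 454, 436 and 448 CPM in the libraries without an extra copy, and 374, 409 and 413 CPM in the libraries with 2 extra copies. The 3 libraries with 2 extra copies were the lowest, with replicate 1 furthest below. The fall was 1.12-fold against no extra copy (log2 change -0.16, SE 0.0405, adjusted p = 0.00523) and 1.09-fold against uninduced cells (log2 change -0.13, SE 0.0402, adjusted p = 0.0185). Against no extra copy the call was lost without 2-extra-copy replicate 1 (adjusted p = 0.0651), and against uninduced cells it was lost with DESeq2 (adjusted p = 0.0896) and with only the 2 groups fitted (adjusted p = 0.0533), and without uninduced replicate 3 or 2-extra-copy replicate 1 (adjusted p between 0.137 and 0.179).

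Mcm4 (ENSMUSG00000022673, chr16:15623897-15637400, minus strand) followed the same order, at 256, 257 and 252 CPM in the uninduced libraries, 259, 261 and 263 CPM in the libraries without an extra copy, and 228, 241 and 241 CPM in the libraries with 2 extra copies. Its libraries with 2 extra copies were also the 3 lowest. Mcm4 fell 1.10-fold against no extra copy (log2 change -0.14, SE 0.0392, adjusted p = 0.0130) and 1.08-fold against uninduced cells (log2 change -0.11, SE 0.0387, adjusted p = 0.0412). The first call was lost with DESeq2 (adjusted p = 0.0928), and without 2-extra-copy replicate 1 or no-extra-copy replicate 2 (adjusted p between 0.0509 and 0.1). The second was lost with DESeq2, with DESeq2 size factors in edgeR, with no low-count filter, with only the 2 groups fitted and with GC-trend offsets (adjusted p between 0.0700 and 0.202), and without any 1 of the 9 libraries (adjusted p between 0.0522 and 0.223). The other MCM genes were not called: Mcm2, Mcm3, Mcm6 and Mcm7 had log2 changes between -0.10 and 0.05. For Mcm6 the 3 libraries with 2 extra copies lay below the uninduced ones, with an adjusted p of 0.0561. Summed over the 6 genes, the level was 2421, 2440.1 and 2476 CPM in uninduced libraries, 2431, 2401 and 2492 CPM without an extra copy and 2285, 2389.6 and 2420.3 CPM with 2 extra copies. The CPM sums overlapped between 2 extra copies and none, with replicate 1 of the former lowest. In TPM the sums were 1627, 1601 and 1612 in uninduced libraries, 1601, 1575 and 1655 without an extra copy and 1486, 1512 and 1525 with 2 extra copies, and the last 3 lay below the other 6, on a scale where the median over all genes moved too, as given above. Mcm7 can share reads with Gm5487, a copy of 97.7% identity over 72.8% of its transcript.

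**Figure D4:**
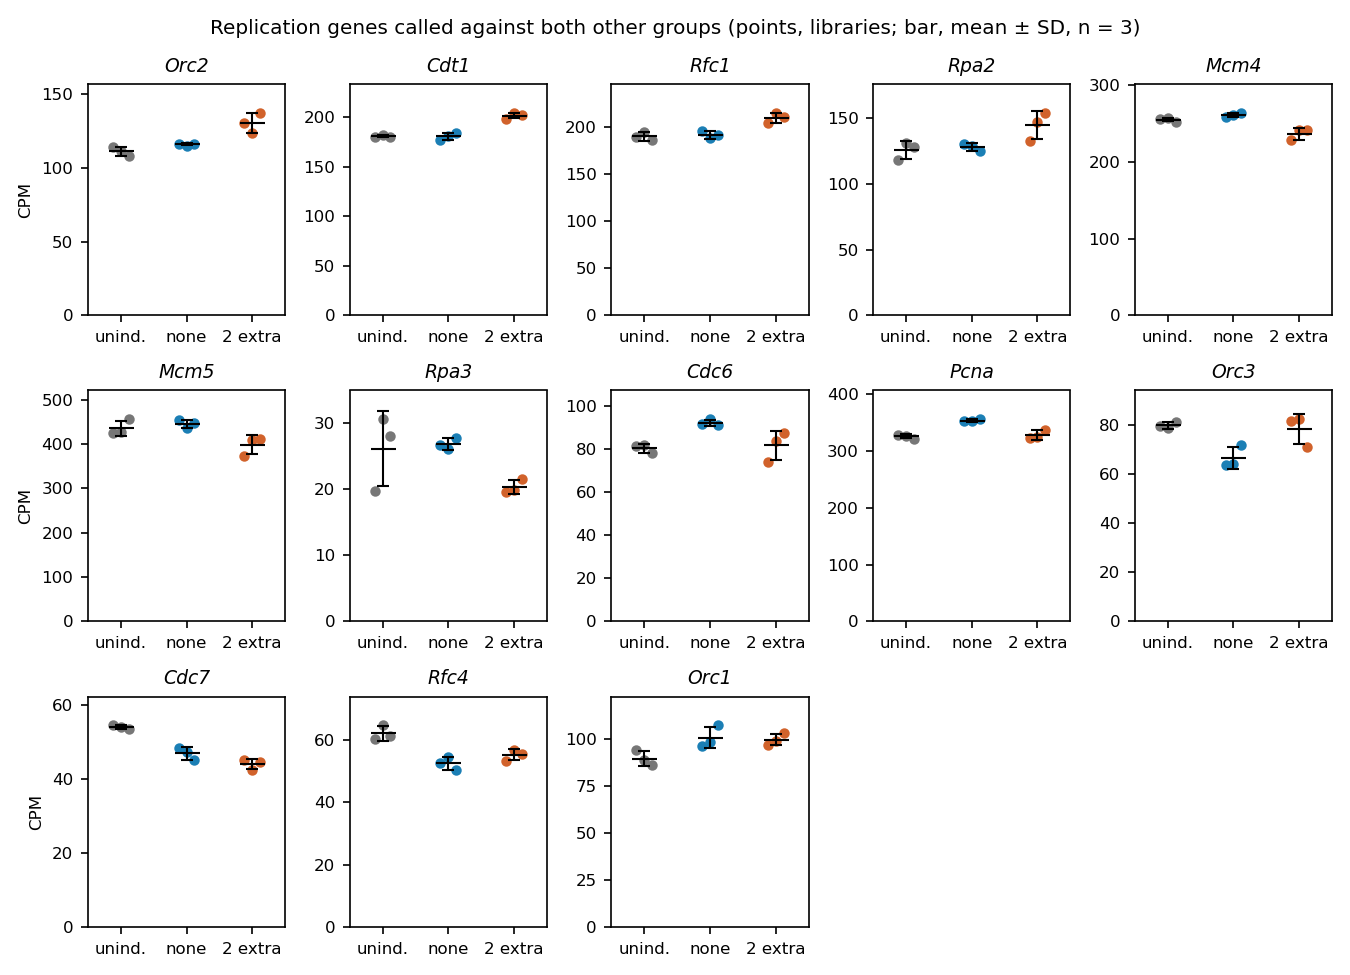
CPM of the 13 genes called against both other groups, one panel per gene with its own linear axis from 0; points are libraries and bars mean ± SD, n = 3 per group. Orc2, Cdt1, Rfc1 and Rpa2 are highest with 2 extra copies and Mcm4, Mcm5 and Rpa3 lowest. Every shift but that of Rpa3 is within 1.25-fold.

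Of the 8 genes for helicase activation and the firing kinase, 2 fell with 2 extra copies against none and 1 against uninduced cells. Without an extra copy against uninduced cells 2 fell, and none rose in any comparison. The shares called were 25%, 12.5% and 25%. Of genes in the same CPM range, 20.2%, 31.6% and 17.6% were called in either direction. Cdc7, the firing kinase (ENSMUSG00000029283, chr5:106964322-106984432, plus strand), was at 54.4, 53.9 and 53.4 CPM in the uninduced libraries, 48.3, 47.2 and 45.0 CPM in the libraries without an extra copy, and 45.1, 42.5 and 44.6 CPM in the libraries with 2 extra copies. All 3 uninduced libraries lay above the 6 induced ones. Cdc7 fell 1.22-fold with 2 extra copies (log2 change -0.29, SE 0.0672, adjusted p = 0.00141) and 1.15-fold with none (log2 change -0.20, SE 0.0661, adjusted p = 0.0409), and the induced groups overlapped (95% interval -0.24 to 0.05 on the log2 scale). The call with 2 extra copies was kept in all 21 alternatives. The call without an extra copy was lost with DESeq2, with library size alone, with no low-count filter and with GC-trend offsets (adjusted p between 0.0584 and 0.256), and without uninduced replicate 1, 2 or 3, no-extra-copy replicate 1, 2 or 3 (adjusted p between 0.0647 and 0.122).

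Dbf4, the activator of CDC7, fell 1.10-fold without an extra copy (log2 change -0.14, SE 0.0414, adjusted p = 0.0230), from a mean of 227 ± 4.73 to 207 ± 3.28 CPM (SD, n = 3). With 2 extra copies its mean was 223 ± 11.0 CPM and no call was made. The kinase gene was thus called lower in both induced groups and the activator in one of them; whether their changes differ was not tested. The call was lost with DESeq2 (adjusted p = 0.124) and with GC-trend offsets (adjusted p = 0.120), and without uninduced replicate 1 or 2 or no-extra-copy replicate 2 or 3 (adjusted p between 0.0580 and 0.127).

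Gins2, a subunit of the GINS complex (ENSMUSG00000031821, chr8:120578633-120589304, minus strand), was at 86.7, 83.2 and 88.1 CPM in the uninduced libraries, 89.4, 97.3 and 101 CPM in the libraries without an extra copy, and 85.5, 78.4 and 76.8 CPM in the libraries with 2 extra copies. Every library with 2 extra copies lay below every library without an extra copy. Gins2 was 1.19-fold lower (log2 change -0.26, SE 0.0581, adjusted p = 0.00198), and the call was kept in all 21 alternatives, including the one without replicate 1 with 2 extra copies. Exons of Gse1 on the other strand cover 67.3% of the exonic bases of Gins2, so reads of these genes may be mixed. Gins1, Gins3 and Gins4, which encode the rest of the complex, were not called, with log2 changes in that comparison of 0.17, -0.00 and 0.00. For Gins1 the libraries with 2 extra copies lay above those without one, at an adjusted p of 0.169.

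Cdc45, the remaining part of the active helicase (ENSMUSG00000000028, chr16:18780447-18811987, minus strand), was at 60.7, 62.9 and 60.0 CPM in the uninduced libraries, 63.4, 65.5 and 65.7 CPM in the libraries without an extra copy, and 54.3, 55.7 and 59.4 CPM in the libraries with 2 extra copies. The 3 libraries with 2 extra copies were the lowest. The fall against no extra copy was 1.15-fold (log2 change -0.20, SE 0.0637, adjusted p = 0.0299), and against uninduced cells the adjusted p was 0.187. The call was lost with DESeq2 (adjusted p = 0.210) and with no low-count filter (adjusted p = 0.0545), and without 2-extra-copy replicate 1 or 2 or no-extra-copy replicate 2 or 3 (adjusted p between 0.0721 and 0.124). Mcm10, which helps activate the helicase, had log2 changes between 0.00 and 0.03 and no call.

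In polymerase alpha and primase, which make the primers, 1 gene of 4 (25%) fell in each comparison with uninduced cells. Of genes in the same CPM range, 31.6% were called with 2 extra copies and 17.6% without an extra copy. Pola1, the catalytic subunit (ENSMUSG00000006678, chrX:93304767-93632155, minus strand), was at 95, 95.8 and 98.1 CPM in the uninduced libraries, 83.3, 86.3 and 88.6 CPM in the libraries without an extra copy, and 95, 84.7 and 92.7 CPM in the libraries with 2 extra copies. The libraries without an extra copy lay below the uninduced ones, and those with 2 extra copies overlapped the libraries without one. Pola1 fell 1.12-fold without an extra copy (log2 change -0.16, SE 0.0535, adjusted p = 0.0361). The call was lost with DESeq2, with library size alone, with length-trend offsets, with GC-trend offsets and with the block and length-trend offsets together (adjusted p between 0.0509 and 0.324), and without uninduced replicate 1, 2 or 3 or no-extra-copy replicate 1 or 2 (adjusted p between 0.0686 and 0.146).

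Prim1, the catalytic primase subunit (ENSMUSG00000025395, chr10:128015168-128030037, plus strand), was at 90.1, 87.1 and 88.5 CPM in the uninduced libraries, 87.9, 80.4 and 82.4 CPM in the libraries without an extra copy, and 76.6, 81.5 and 79.4 CPM in the libraries with 2 extra copies. Its libraries with 2 extra copies lay below the uninduced ones and overlapped those without an extra copy. Prim1 fell 1.12-fold with 2 extra copies against uninduced cells (log2 change -0.16, SE 0.0545, adjusted p = 0.0270). The call was lost with DESeq2 (adjusted p = 0.195) and with GC-trend offsets (adjusted p = 0.0540), and without uninduced replicate 1 or 3 or 2-extra-copy replicate 1 or 3 (adjusted p between 0.0586 and 0.110). Pola2 and Prim2, the accessory subunits, were not called, with log2 changes between -0.02 and 0.07.

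Of the 4 genes of polymerases delta and epsilon, Pold2 alone was called, with 2 extra copies against uninduced cells. That is 25%, beside 31.6% of genes in the same CPM range in that comparison. Pold2, an accessory subunit of polymerase delta (ENSMUSG00000020471, chr11:5872180-5878292, minus strand), was at 85.9, 82.0 and 88.1 CPM in the uninduced libraries, 87.5, 87.8 and 92.6 CPM in the libraries without an extra copy, and 94.7, 97.4 and 98.2 CPM in the libraries with 2 extra copies. Every library with 2 extra copies lay above the other 6. The rise against uninduced cells was 1.14-fold (log2 change 0.18, SE 0.0522, adjusted p = 0.00854), and against no extra copy the adjusted p was 0.118. The call was lost with DESeq2, with length-trend offsets and with the block and length-trend offsets together (adjusted p between 0.0619 and 0.0659), and without uninduced replicate 2 (adjusted p = 0.0618). The catalytic subunit genes Pold1 and Pole had the opposite sign in that comparison, at log2 changes of -0.11 and -0.11, with adjusted p values of 0.0538 and 0.0877. Pole2, an accessory subunit of polymerase epsilon, was not called either, and its levels spread from 31.7 to 44.4 CPM.

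The clamp loader, RFC1 to RFC5, had subunits on both sides. Rfc1, the large subunit (ENSMUSG00000029191, chr5:65261850-65335670, minus strand), was at 189, 195 and 186 CPM in the uninduced libraries, 196, 188 and 191 CPM in the libraries without an extra copy, and 204, 214 and 211 CPM in the libraries with 2 extra copies. Its libraries with 2 extra copies were the 3 highest. Rfc1 rose 1.10-fold against no extra copy (log2 change 0.13, SE 0.0409, adjusted p = 0.0242) and 1.10-fold against uninduced cells (log2 change 0.14, SE 0.0402, adjusted p = 0.00873). The first call was lost with DESeq2 (adjusted p = 0.102) and with library size alone (adjusted p = 0.103), and without 2-extra-copy replicate 2 or 3 or no-extra-copy replicate 2 or 3 (adjusted p between 0.0524 and 0.134); the second was kept in all 21 alternatives.

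Rfc4, a small subunit (ENSMUSG00000022881, chr16:23113943-23127737, minus strand), was at 60.0, 64.5 and 61.3 CPM in the uninduced libraries, 52.5, 54.4 and 50.2 CPM in the libraries without an extra copy, and 53.3, 56.7 and 55.3 CPM in the libraries with 2 extra copies. All uninduced libraries lay above the induced ones. It fell 1.18-fold without an extra copy (log2 change -0.23, SE 0.0641, adjusted p = 0.0115) and 1.12-fold with 2 extra copies (log2 change -0.17, SE 0.0638, adjusted p = 0.0481). Without an extra copy the call was lost with DESeq2 (adjusted p = 0.112) and with GC-trend offsets (adjusted p = 0.0670), and without uninduced replicate 2 (adjusted p = 0.0809). With 2 extra copies it was lost with DESeq2, with DESeq2 size factors in edgeR, with no low-count filter, with the filter at 1 CPM, with only the 2 groups fitted and with GC-trend offsets (adjusted p between 0.0526 and 0.263), and without any 1 of the 9 libraries (adjusted p between 0.0524 and 0.194). Exons of Eif4a2 on the other strand cover 12.7% of the exonic bases of Rfc4.

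Rfc5 (ENSMUSG00000029363, chr5:117378103-117389047, minus strand) was at 176, 189.7 and 193 CPM in the uninduced libraries, 197, 201 and 200.3 CPM in the libraries without an extra copy, and 199, 212 and 203 CPM in the libraries with 2 extra copies. Its uninduced libraries lay below all induced ones. The rise with 2 extra copies was 1.10-fold (log2 change 0.14, SE 0.0423, adjusted p = 0.0159), a call that was lost with DESeq2 (adjusted p = 0.0610), and without uninduced replicate 1 or 2-extra-copy replicate 2 (adjusted p between 0.0960 and 0.140); without an extra copy the adjusted p was 0.127. Rfc2 and Rfc3 were not called, and for both every library with 2 extra copies lay below every one without an extra copy, at adjusted p values of 0.159 and 0.0806.

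Pcna, the clamp itself (ENSMUSG00000027342, chr2:132249162-132253314, minus strand), was at 328, 327 and 321 CPM in the uninduced libraries, 352, 353 and 355 CPM in the libraries without an extra copy, and 322, 323 and 337 CPM in the libraries with 2 extra copies. The libraries without an extra copy lay above the other 6. Pcna rose 1.09-fold without an extra copy against uninduced cells (log2 change 0.12, SE 0.0369, adjusted p = 0.0272) and was 1.08-fold lower with 2 extra copies than with none (log2 change -0.11, SE 0.0372, adjusted p = 0.0426). The rise was lost with DESeq2, with upper-quartile factors, with no low-count filter, with length-trend offsets and with the block and length-trend offsets together (adjusted p between 0.0542 and 0.103), and without uninduced replicate 1, 2 or 3, no-extra-copy replicate 1, 2 or 3 (adjusted p between 0.0526 and 0.0942). The second call was lost with DESeq2, with DESeq2 size factors in edgeR, with no low-count filter and with only the 2 groups fitted (adjusted p between 0.0518 and 0.180), and without uninduced replicate 2 or 3, 2-extra-copy replicate 1, 2 or 3, no-extra-copy replicate 1, 2 or 3 (adjusted p between 0.0519 and 0.170). The pseudogene Pcna-ps2 has 99.2% identity over 51.5% of the Pcna transcript and was itself listed at 129 ± 3.84, 132 ± 4.69 and 129 ± 9.28 CPM (SD, n = 3) in uninduced cells, without an extra copy and with 2 extra copies, so the level of Pcna is uncertain.

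RPA, the trimer that coats single-stranded DNA, had 1 subunit gene called higher and 1 called lower with 2 extra copies. That is 66.7% of its 3 genes against none and 66.7% against uninduced cells. Of genes in the same CPM range, 20.2% and 31.6% were called. Rpa2, the middle subunit (ENSMUSG00000028884, chr4:132768332-132778752, plus strand), was at 118, 131 and 128 CPM in the uninduced libraries, 130.2, 129 and 125 CPM in the libraries without an extra copy, and 132, 147 and 153 CPM in the libraries with 2 extra copies. Its libraries with 2 extra copies were the 3 highest, with replicate 1 only just above the others. Rpa2 rose 1.13-fold against no extra copy (log2 change 0.17, SE 0.0523, adjusted p = 0.0198) and 1.15-fold against uninduced cells (log2 change 0.21, SE 0.0514, adjusted p = 0.00296). The first call was lost with DESeq2, with limma-voom and with library size alone (adjusted p between 0.0505 and 0.0910), and without 2-extra-copy replicate 2 or 3 or no-extra-copy replicate 2 or 3 (adjusted p between 0.0659 and 0.136); the second was kept in all 21 alternatives.

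Rpa3, the small subunit (ENSMUSG00000012483, chr6:8255936-8259173, minus strand), had the largest change of the 42 genes, at 19.8, 30.6 and 28.2 CPM in the uninduced libraries, 26.7, 26.1 and 27.9 CPM in the libraries without an extra copy, and 19.6, 19.9 and 21.6 CPM in the libraries with 2 extra copies. The libraries with 2 extra copies lay below all without an extra copy, while uninduced replicate 1 lay among them. Rpa3 fell 1.31-fold against no extra copy (log2 change -0.39, SE 0.125, adjusted p = 0.0353) and 1.29-fold against uninduced cells (log2 change -0.36, SE 0.123, adjusted p = 0.0318). Against no extra copy the call was lost with DESeq2 (adjusted p = 0.115) and with limma-voom (adjusted p = 0.0715), and without 2-extra-copy replicate 1, 2 or 3, no-extra-copy replicate 1, 2 or 3 (adjusted p between 0.0704 and 0.122). Against uninduced cells it was lost with DESeq2, with limma-voom, with only the 2 groups fitted and with GC-trend offsets (adjusted p between 0.0749 and 0.114), and without uninduced replicate 2 or 3, 2-extra-copy replicate 1, 2 or 3 or no-extra-copy replicate 1 or 3 (adjusted p between 0.05002 and 0.232). Rpa1, the large subunit, was not called, with log2 changes between -0.02 and 0.07.

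Okazaki fragments are finished by the flap nuclease FEN1 and the ligase LIG1. Lig1 (ENSMUSG00000056394, chr7:13277283-13311433, plus strand) was at 257, 262 and 276 CPM in the uninduced libraries, 281, 259.9 and 277 CPM in the libraries without an extra copy, and 234, 256 and 251 CPM in the libraries with 2 extra copies. The 3 libraries with 2 extra copies were the lowest, with replicate 1 furthest below. Lig1 fell 1.10-fold against no extra copy (log2 change -0.14, SE 0.0433, adjusted p = 0.0221), and against uninduced cells its adjusted p was 0.0817. The call was lost with DESeq2 (adjusted p = 0.122), and without 2-extra-copy replicate 1 or 3 or no-extra-copy replicate 1 or 3 (adjusted p between 0.0591 and 0.177). Fen1 was not called (adjusted p = 0.103 with 2 extra copies against none), and other genes cover 84.2% of its exonic bases on the other strand.

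Sorted by which group stood apart, 13 members were called against both other groups. How many of all genes tested were called in this way was not counted. The calls against both groups share the libraries of the group that stood apart. Of these 13 members, Cdt1 alone kept both of its calls in all 21 alternatives. Cells with 2 extra copies were higher than both for Orc2, Cdt1, Rfc1 and Rpa2 and lower than both for Mcm4, Mcm5 and Rpa3. Cells without an extra copy were higher than both for Cdc6 and Pcna and lower for Orc3, while uninduced cells were higher for Cdc7 and Rfc4 and lower for Orc1. A further 8 were called in 1 comparison, and 21 in none: Orc4, Orc5, Orc6, Gmnn, Mcm2, Mcm3, Mcm6, Mcm7, Mcm10, Gins1, Gins3, Gins4, Pola2, Prim2, Pold1, Pole, Pole2, Rfc2, Rfc3, Rpa1 and Fen1. In both comparisons of cells with 2 extra copies, calls went both ways within the clamp with its loader and within RPA. The ORC genes called were higher, but the pairs differed: Orc2 and Orc3 against none, Orc1 and Orc2 against uninduced cells. They were 2 of 6 in each (33.3%), beside 20.2% and 31.6% of genes in the same CPM range called in either direction. Orc3 was itself low without an extra copy, and with 2 extra copies its log2 change against uninduced cells was -0.03. Without an extra copy against uninduced cells, ORC had 1 gene called higher (Orc1) and 1 lower (Orc3).

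Other genes of the process were read from lists chosen by function. Their calls are given from the main edgeR fit alone, without the alternatives given for the members. Of 37 further origin and replisome factors, 1 rose and 2 fell with 2 extra copies against none, 3 and 7 against uninduced cells, and 1 and 5 without an extra copy, with median log2 changes of -0.03, -0.04 and -0.02. The genes called were 8.11%, 27.0% and 16.2% of this list, beside 16.0%, 25.0% and 13.5% of all genes tested. With 2 extra copies against none the genes called were the DNA helicase gene Ddx11, at a log2 change of 0.20 (adjusted p = 0.0312), the chromatin assembly gene Chaf1b, at -0.25 (adjusted p = 0.00106), and Dscc1 of an alternative clamp loader, at -0.49 (adjusted p = 0.00538). Against uninduced cells Pclaf, which encodes a PCNA partner, had -0.35 (adjusted p = 2.89e-05) and Pold3, a further polymerase delta subunit, -0.26 (adjusted p = 0.000498), while the histone chaperone gene Asf1b had 0.27 (adjusted p = 0.00441). Without an extra copy the acetyltransferase gene Kat7, whose product acts at origins, had -0.19 (adjusted p = 0.000913).

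Of 10 replication checkpoint genes, 2 rose with 2 extra copies against none, among them Chek1, the effector kinase, at 0.20 (adjusted p = 0.0212); 1 rose and 1 fell against uninduced cells; and 1 rose and 3 fell without an extra copy, with Atr, the sensor kinase, at -0.50 (adjusted p = 0.00194). Of 13 E2F and pocket protein genes, 2 rose and 2 fell with 2 extra copies against none, 2 and 1 against uninduced cells, and 0 and 2 without an extra copy. In the 3 comparisons 20%, 20% and 40% of the checkpoint list were called, and 30.8%, 23.1% and 15.4% of the E2F list. The shares of all genes tested were 16.0%, 25.0% and 13.5%. Tfdp1, the E2F dimer partner, had 0.25 (adjusted p = 4.95e-05) and E2f4 0.17 (adjusted p = 0.00396) with 2 extra copies against none, while E2f1, an activating E2F, had -0.20 (adjusted p = 0.0410) and E2f8 -0.20 (adjusted p = 0.0378). The E2F genes called thus went both ways, as the replication genes did.

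Mitosis genes, which act later in the cycle, gave a different count. Of 17, 12 rose and none fell with 2 extra copies against none, 6 rose and 2 fell against uninduced cells, and none rose and 10 fell without an extra copy against uninduced cells. That is 70.6%, 47.1% and 58.8% of the list, beside 16.0%, 25.0% and 13.5% of all genes tested. The medians were 0.27, 0.01 and -0.17 on the log2 scale, beside -0.00, -0.02 and 0.03 for the replication genes. Top2a, the topoisomerase that untangles chromosomes, had a mean of 1080.3 ± 27.2 CPM in uninduced cells, 879 ± 4.74 CPM without an extra copy and, with 2 extra copies, 1084 ± 45.0 CPM (SD, n = 3). The cells without an extra copy were lowest, by a log2 change of -0.30 (adjusted p = 6.64e-08) against uninduced cells, and cells with 2 extra copies stood 0.30 (adjusted p = 1.01e-07) above them. Ube2c, of the ubiquitin system of mitotic exit, had 0.42 (adjusted p = 9.45e-09) with 2 extra copies against none. The difference between the mitosis and replication lists is a description and was not tested.

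**Figure D5:**
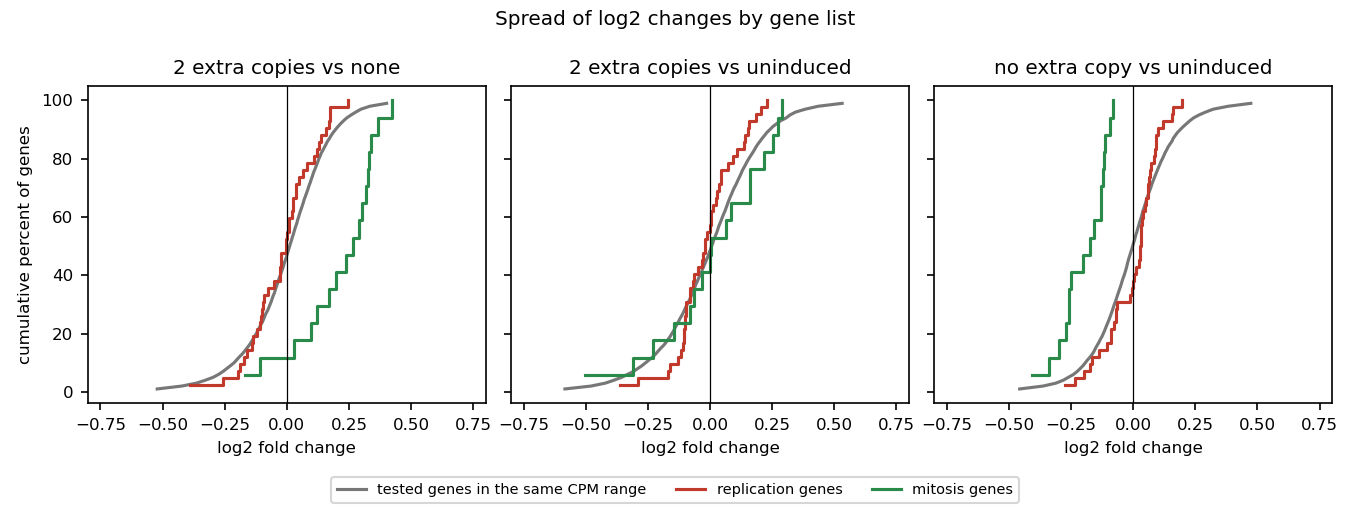
Cumulative percent of genes against log2 fold change in 3 comparisons (panels) for the 42 replication genes (red), 17 mitosis genes (green) and, by percentile, the 7798 tested genes of the same CPM range (grey). The red steps stay near 0 in each panel, while the green steps lie to the right with 2 extra copies against none (median 0.27) and to the left without an extra copy against uninduced cells (median -0.17).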

How the data were processed

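Gene expression was measured by sequencing total RNA (75 bp, single end, per the labels' protocols). The authors deposited expected counts per gene, estimated with RSEM 1.17 on GRCm38, per the submitters' processing notes, with annotation release 84 per the file headers; Picard, cutadapt and limma are listed there with no role, and no aligner is given in these sources. Reads that match several genes are divided among them, so close copies can share counts. The labels repeat the drug treatment for the uninduced libraries, so titles and design text set their group.

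Counts were rounded to whole numbers. Library totals were 4165286 to 8872303, and filterByExpr by group left 13424 genes with 99.8% of the counts. Differences were tested over 9 libraries by edgeR 4.0.16 (robust quasi-likelihood F-test, TMM, 1 coefficient per group, common biological coefficient of variation 0.0394) in R 4.3.3, with Benjamini-Hochberg adjustment over all genes tested; calls needed an adjusted p under 0.05. Adjusted p values are from edgeR where no other tool is named, and n is 3 libraries a group. SE is the absolute log2 change over the root of F, and 95% intervals use the t quantile. TPM was computed from the counts and the longest protein-coding transcript of GENCODE M21 (GRCm38), which also gave names (35432 of 35771 identifiers, all 42 members) and coordinates. A member was called uncertain where a copy matched at least 95% of bases over at least 50% of its transcript, or exons of other genes covered most of its own: Fen1, Gins2, Mcm7 and Pcna. Promoters came from RefSeq.

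The members and lists were chosen with earlier results of these data known. Values in every library are given, per role, for up to 3 called members with the largest change and for members called in opposite directions; from other lists up to 2 genes per direction and comparison with the smallest p were named. The alternatives were DESeq2 1.42.0, limma-voom (limma 3.58.1), 3 other scalings, 2 other filters, only the groups compared, a replicate block, length-trend and GC-trend offsets, the block with length offsets, and leaving out each of 9 libraries.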

Additional observations from a re-analysis of the deposited data

How the results depend on the processing

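Over 21 alternatives, the 34 calls on members gave 714 outcomes: 534 kept the call, 180 lost it and 0 reversed. The 8 calls kept in all 21 were Orc3 without an extra copy against uninduced cells, Cdt1 and Gins2 with 2 extra copies against none, and Orc2, Cdt1, Cdc7, Rfc1 and Rpa2 with 2 extra copies against uninduced cells. For 2 extra copies against none, DESeq2 called 2 members higher and 2 lower; library size alone gave 2 higher and a median log2 change of -0.0384; no low-count filter gave 5 lower. For 2 extra copies against uninduced cells, DESeq2 called 4 higher and 1 lower, library size alone 10 lower with a median of -0.0395, and fitting only the 2 groups 2 lower; the median was -0.0457 with length-trend offsets and -0.0482 with the replicate block and length-trend offsets. For no extra copy against uninduced cells, DESeq2 called 0 higher and 1 lower, library size alone 3 lower, upper-quartile factors 1 higher, no low-count filter 1 higher, and GC-trend offsets 1 lower with a median of 0.0103. The cause of these shifts was not tested. With library size alone the share of calls that were higher was 14.3%, 37.5% and 57.1% in the 3 comparisons, against 38.5%, 53.8% and 37.5% with TMM; over all genes it was 36.3%, 44.7% and 59.8% against 51.9%, 51.4% and 52.6%. The members' share was 16.7% with upper-quartile factors in the third. Leaving out 1 library at a time gave 1 to 6 higher and 1 to 8 lower with medians from -0.0315 to 0.0341 for 2 extra copies against none, 5 to 7 higher and 1 to 4 lower with medians from -0.0476 to 0.00609 against uninduced cells, and 0 to 4 higher and 1 to 5 lower with medians from 0.0177 to 0.0373 without an extra copy. Same-numbered libraries of different groups had correlations of deviations from -0.102 to 0.211, and differently numbered ones from -0.137 to 0.118. The highest, 0.211, was between replicate 1 of uninduced cells and replicate 1 with 2 extra copies. The numbers were not taken to pair libraries, although these values do not settle whether they do. With a replicate block the counts were 5 and 8, 7 and 8, and 3 and 5. An alternative chosen after seeing the data left out Fen1, Gins2, Mcm7 and Pcna and gave 5 higher and 6 lower, 7 and 6, and 2 and 5. With 3 libraries a group, an exact permutation test of 1 gene cannot go below 0.10, and members with few counts, such as Gins3 and Rpa3, have the widest intervals.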
